A study of Mus musculus with 6 samples.

Results

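RNA-seq of sorted mouse thyroid tumor cells was examined for 10 genes of the BCL2 family, which sets the threshold for mitochondrial apoptosis. The genes were taken by their symbols, and all 10 were found among the 35027 genes of the deposited table. They are the anti-apoptotic genes Bcl2, Bcl2l1 and Mcl1, the BH3-only genes Bcl2l11, Bmf, Bad, Bbc3 and Pmaip1, and the effectors Bax and Bak1. Each gene was compared between 3 YAP and 3 BrafYAP libraries, to ask whether its transcript differed when mutant Braf was added to mutant YAP. No gene of the 10 passed the threshold, beside 0 of all 16832 genes tested (0%). Bmf was high in a single BrafYAP library, in which Pmaip1 was lowest. The groups did not overlap for Mcl1 alone, against 28.7% of all genes tested, and they overlapped for Mcl1 too when the libraries were rescaled by median ratios.

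YAP mice carried the RIK allele (a Cre-dependent rtTA with the red fluorescent reporter Kate), switched on in thyroid follicular cells, and tetO-YAPS127A, a transgene for a constitutively nuclear YAP. BrafYAP mice carried the same alleles together with LSL-Braf, which gives BrafV600E from the endogenous gene after Cre. Both groups thus expressed YAPS127A, received doxycycline chow from 4 weeks of age per the labels and were sampled as about 20000 Kate-positive tumor cells per library. The labels state that YAP tumors were pooled by 3 for a library while BrafYAP tumors were used singly, so pooling and genotype cannot be told apart, and the p-values below measure the spread between these libraries. Replicates are named by their numbers, 1, 2 and 3 for YAP and 1, 2 and 6 for BrafYAP.

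The proteins of this family meet at the outer mitochondrial membrane. Bax and Bak1 form the pores that release cytochrome c, the anti-apoptotic proteins bind and hold both the effectors and their activators in a groove, and BH3-only proteins occupy that groove or activate the effectors directly, through a short helix called the BH3 domain. In many tumor cells MAPK signaling, the pathway that mutant Braf activates in thyroid cancer, is known to act on several members after transcription, by phosphorylation of Bim (the product of Bcl2l11) and Bad and by stabilization of Mcl1 protein, which RNA does not show.

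The BH3 helix is shown here because it is the part by which these proteins bind one another. The coding sequences below were read from GENCODE M21 transcripts on mm10, 5′ to 3′ on the coding strand, for the 9 genes in which they are given here. Each window has 39 bases (13 codons), and capitals mark the 6 codons of the core, which run from the invariant leucine to the invariant aspartate.
Bcl2: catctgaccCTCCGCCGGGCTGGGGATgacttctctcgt
Bcl2l1: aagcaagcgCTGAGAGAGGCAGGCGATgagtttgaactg
Mcl1: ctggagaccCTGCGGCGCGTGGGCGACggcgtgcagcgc
Bcl2l11: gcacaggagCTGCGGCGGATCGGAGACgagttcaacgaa
Bmf: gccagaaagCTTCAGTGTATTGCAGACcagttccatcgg
Bad: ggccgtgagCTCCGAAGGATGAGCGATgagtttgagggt
Bbc3: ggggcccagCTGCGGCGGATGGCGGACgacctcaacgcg
Bax: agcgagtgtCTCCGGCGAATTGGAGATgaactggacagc
Bak1: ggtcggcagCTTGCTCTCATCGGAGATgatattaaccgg

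Against the window of Bcl2l11, the BH3-only protein that binds every anti-apoptotic member, the core of Bax encodes the same residue at 6 of 6 positions and that of Bmf at 3. Cores were found by a pattern that requires the leucine and the aspartate and restricts most positions between them. Some of these matches were thus set by the search. Over all 13 codons Bcl2l1, Bad and Bax share 7 residues with Bcl2l11, Bcl2 shares 6, and Mcl1, Bmf, Bbc3 and Bak1 share 5. The closest at the level of bases was Bbc3, with 26 of 39 bases in common, and the most distant was Bcl2, with 18. All of these cores lie in coding exons. That of Bcl2l11 is in exon 3 at chr2:128147150-128147167, that of Bmf in exon 4 at chr2:118545109-118545126, that of Mcl1 in exon 1 at chr3:95659436-95659453, and that of Bax in exon 3 at chr7:45466006-45466023. The measurements that follow are of whole genes and do not separate isoforms with and without this helix.

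The 6 libraries held 26.2 to 36.9 M estimated reads, obtained by undoing the authors' division by length. The unit used below is the scaled read, an estimated read kept on the authors' scale between libraries, so that a gene can be compared between libraries but not with another gene. Depth limits Bmf most, with 52, 65 and 52 estimated reads in the YAP libraries, and the exact Poisson interval of 52 reads (95%, counting error only) is 38.8 to 68.2. BrafYAP replicate 6 stood apart from the other libraries over all genes, with Pearson correlations of 0.732 to 0.837 on log2 scaled reads against 0.833 to 0.968 among the other pairs. Immune markers summed to 182026 to 644349 scaled reads in YAP and 51441 to 196902 in BrafYAP. The 14 genes listed for dissociation and stress response, Fos, Egr1 and Dusp1 among them, summed to 174352 to 371998 and 471491 to 705649. Dusp1 had the highest mean of this list, at 63669 in YAP and 225761 in BrafYAP, and 12 of the 14 had positive changes and 2 negative. Whether handling or genotype lies behind this difference was not tested. Thyroid follicular markers (14515 to 32457 and 8598 to 34295) and epithelial markers (153903 to 493948 and 209867 to 567375) were present in both groups. The endothelial, fibroblast, skeletal muscle, erythroid and C-cell and parathyroid lists overlapped between groups. Myh4 and Myl1 had at most 3 estimated reads in every library. In such bulk samples fewer cells of a type and less RNA per cell cannot be told apart.

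By limma over the 16832 genes with a mean of at least 10 scaled reads, 0 of the 10 genes had an adjusted p under 0.05, beside 0 of all genes tested (0%). At an unadjusted p under 0.05 the count was 0 of 10, beside 3404 of all genes (20.2%), and voom on the estimated reads also gave 0 at either level. The groups did not overlap for 1 of the 10, Mcl1, beside 4836 of all genes (28.7%). The median log2 fold change (BrafYAP over YAP) of the 10 genes was 0.05 and the median size of the change was 0.44, beside -0.12 and 0.60 over all genes. On the deposited values as they stand, 7 of the 10 had a mean of at least 1 and entered the fit. There 0 of 7 had an adjusted p under 0.05 beside 18 of 7319 genes (0.246%), 0 had an unadjusted p under 0.05 beside 19.9%, and Mcl1 alone did not overlap beside 28.2%.

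**Figure D1:**
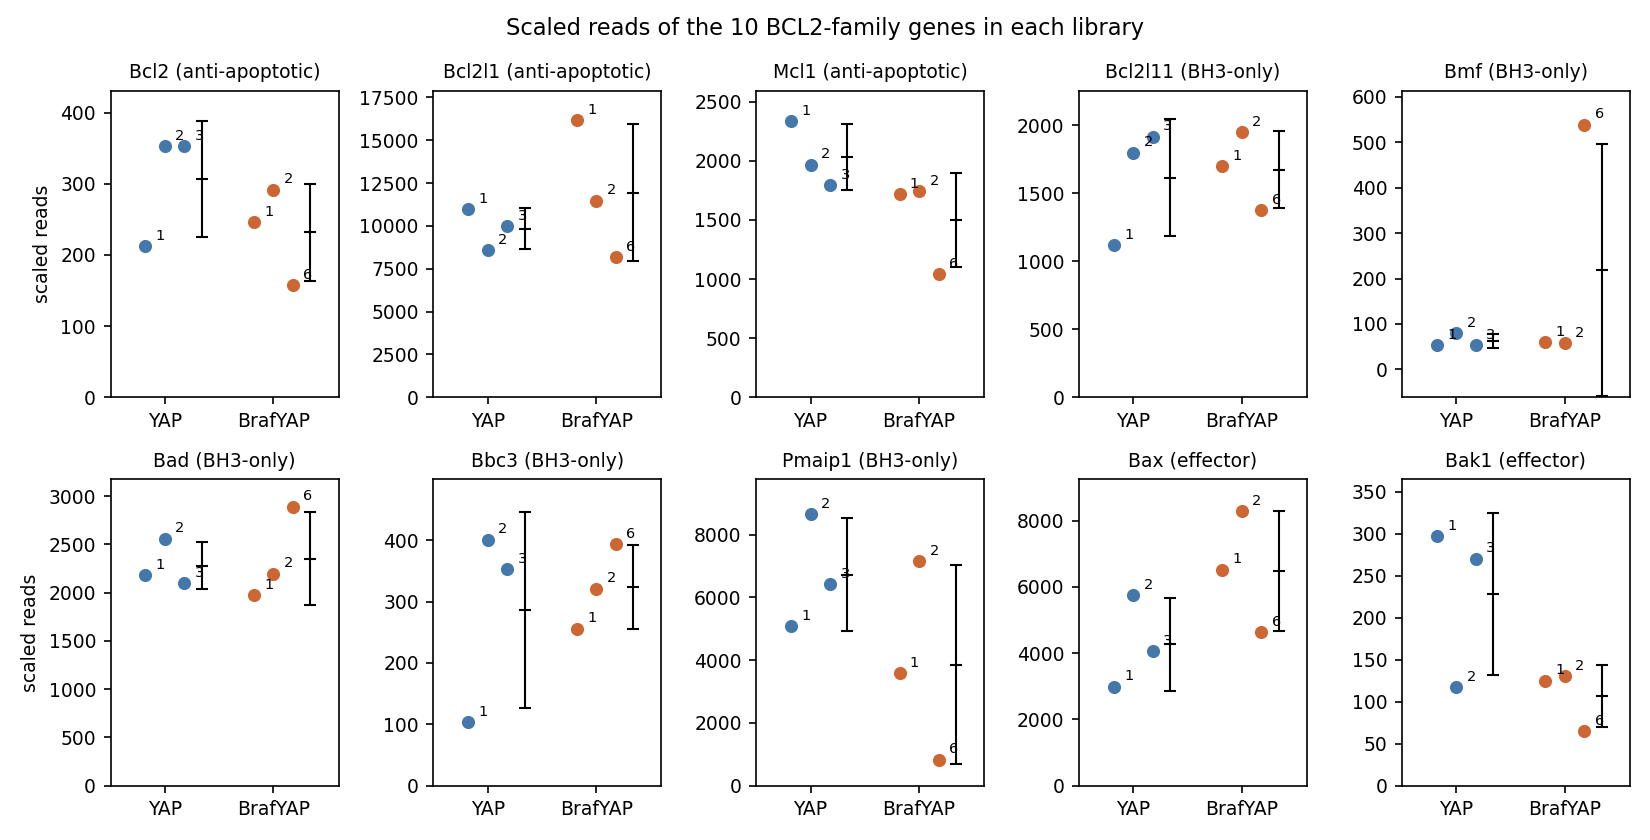
Scaled reads of the 10 genes (vertical axis, 1 panel per gene) in the 3 YAP libraries (blue) and the 3 BrafYAP libraries (orange), numbered by replicate, with the mean and SD of each group as a black bar. The YAP and BrafYAP points overlap in every panel but that of Mcl1, and BrafYAP replicate 6 is the highest point for Bmf (538.1) and the lowest for Pmaip1 (829.8).

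Of the anti-apoptotic genes, Bcl2l1 had the most reads. It encodes Bcl-xL, which protects many solid tumor cells, and lies at chr2:152780668-152831728 on mm10. It had 10992, 8566 and 9963 scaled reads in YAP replicates 1, 2 and 3 and 16164, 11474 and 8178 in BrafYAP replicates 1, 2 and 6. Replicate 1 and replicate 6 of BrafYAP were the highest and the lowest of all libraries, so the YAP range lay within the BrafYAP range. Its log2 fold change was 0.23 (SE 0.326, 95% interval -0.53 to 1.00, limma adjusted p = 0.712), and without BrafYAP replicate 1 it was -0.02.

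Mcl1 encodes a short-lived anti-apoptotic protein, and lies at chr3:95658788-95663176. Its scaled reads were 2339, 1968 and 1794 in YAP and 1718, 1744 and 1040 in BrafYAP. All 3 BrafYAP libraries were below all 3 YAP libraries, but the gap between the nearest libraries, YAP replicate 3 and BrafYAP replicate 2, was small beside the spread within BrafYAP. A log2 fold change of -0.47 did not pass (SE 0.311, 95% interval -1.20 to 0.26, limma adjusted p = 0.426). The values overlapped once the libraries were rescaled by median ratios, to 1662 in YAP replicate 3 and 1768 in BrafYAP replicate 2, and did not under quantile normalization. Without BrafYAP replicate 6 the change was -0.22.

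Bcl2, the founding member of the family, lies at chr1:106538178-106714274 and was low. There were 212.8, 353.4 and 353.6 scaled reads in YAP and 245.6, 291.8 and 158.1 in BrafYAP. YAP replicates 2 and 3 were above every BrafYAP library, and YAP replicate 1 was below 2 of the 3. On the log2 scale the groups differed by -0.41 (SE 0.386, 95% interval -1.31 to 0.50, limma adjusted p = 0.572). Its span overlaps the antisense gene D630008O14Rik and the unclassified gene Gm37053, each with under 3 scaled reads in every library, and a microRNA gene with no estimate.

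Of the BH3-only genes, Bcl2l11 encodes Bim, an activator that MAPK signaling is known to restrain in many cells, and lies at chr2:128126038-128162547. It had 1121, 1800 and 1918 scaled reads in YAP and 1698, 1948 and 1377 in BrafYAP. The groups overlapped, and the lowest library was YAP replicate 1. The log2 fold change was 0.08 (SE 0.318, limma adjusted p = 0.908). Its 95% interval ran from -0.67 to 0.83.

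Bmf encodes a BH3-only protein held at the actin and myosin cytoskeleton by a dynein light chain, and lies at chr2:118528757-118549687. Its scaled reads were 53.5, 79.5 and 53.6 in YAP and 59.8, 58.1 and 538.1 in BrafYAP. Replicate 6 of BrafYAP alone was high, at 6.70 times the highest of the other 5 libraries, while BrafYAP replicates 1 and 2 lay within the YAP range. The counts behind these values were 54, 74 and 606 estimated reads in BrafYAP, and the exact Poisson interval of 606 reads was 559 to 656, far from those of the other libraries. Over the genes tested, 343 of 16832 (2.04%) were at least as far above the other libraries in BrafYAP replicate 6. The log2 fold change was 1.01 with a wide error (SE 0.867, 95% interval -1.03 to 3.04, limma adjusted p = 0.535), and without that library it was -0.05.

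Bad encodes a BH3-only protein that survival kinases phosphorylate and inactivate. There were 2183, 2561 and 2098 scaled reads in YAP and 1971, 2196 and 2891 in BrafYAP. It was the steadiest of the 10 genes within YAP, the groups overlapped, and the highest library was BrafYAP replicate 6. The log2 fold change was 0.03 (SE 0.273, 95% interval -0.61 to 0.67, limma adjusted p = 0.960). It lies at chr19:6941861-6951899, where Gpr137 on the other strand overlaps it by 620 bases and had 586 to 1296 scaled reads. No strand is stated for the counting, so reads in that overlap cannot be told apart.

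Bbc3 encodes Puma, a BH3-only protein that binds all anti-apoptotic members, and lies at chr7:16308393-16318205. Its scaled reads were 103.8, 401.1 and 353.3 in YAP and 255.9, 321.1 and 394.3 in BrafYAP. YAP replicate 1 alone was low, and the other YAP libraries lay within or just above the BrafYAP range. Between groups the log2 fold change was 0.38 (SE 0.552, 95% interval -0.92 to 1.67, limma adjusted p = 0.724), and without YAP replicate 1 it turned to -0.24. In YAP replicate 1 it was 2.45 times below the next lowest library, and 1262 genes (7.50%) were at least as far below the others there.

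Pmaip1 encodes Noxa, a BH3-only protein known to bind Mcl1 and to promote its degradation. It had 5091, 8650 and 6412 scaled reads in YAP and 3576, 7165 and 829.8 in BrafYAP. BrafYAP replicates 1 and 6 were below every YAP library, and replicate 2 was within the YAP range. The log2 fold change was -1.24, the farthest from 0 among the 10 genes, with a wide error (SE 0.738, 95% interval -2.98 to 0.49, limma adjusted p = 0.379). In BrafYAP replicate 6 its reads were 4.31 times below the next lowest library, and 640 genes (3.80%) were at least as far below the others there. Without that library the change was -0.37, and without BrafYAP replicate 2 it was -1.93 with a limma unadjusted p of 0.0223 and an adjusted p of 0.279. Without BrafYAP replicate 2, 2599 of 16878 genes had a limma unadjusted p under 0.05.

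Of the effectors, Bax is a cytosolic protein that moves to mitochondria on activation, and lies at chr7:45461697-45466898. Its scaled reads were 2993, 5765 and 4059 in YAP and 6522, 8283 and 4641 in BrafYAP. BrafYAP replicates 1 and 2 were above every YAP library, and replicate 6 fell between YAP replicates 2 and 3. BrafYAP differed by a log2 fold change of 0.61 (SE 0.358, 95% interval -0.23 to 1.45, limma adjusted p = 0.373). It had a limma unadjusted p of 0.0199 (adjusted p = 0.0965) once libraries were weighted by their spread, and on deposited values so weighted the adjusted p was 0.0520, the smallest for any of the 10 genes under the alternatives run. With these weights 5087 of 16832 genes had a limma unadjusted p under 0.05 on scaled reads. On deposited values so weighted, 1393 of 7319 genes had an adjusted p under 0.05. An overlapping gene on the same strand, Gm45808, had at most 19.8 scaled reads.

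Bak1, which resides in the mitochondrial membrane, lies at chr17:27019810-27029009. There were 297.1, 117.4 and 270.4 scaled reads in YAP and 125.2, 130.3 and 64.8 in BrafYAP. YAP replicates 1 and 3 were high, and YAP replicate 2 fell between BrafYAP replicates 6 and 1. Over all libraries the log2 fold change was -1.04 (SE 0.50, 95% interval -2.22 to 0.13, limma adjusted p = 0.289), the smallest adjusted p among the 10 genes. Without YAP replicate 2 it was -1.47, with a limma unadjusted p of 0.0187 and an adjusted p of 0.137, and with weighted libraries it was -0.88 (limma unadjusted p = 0.0459, adjusted p = 0.157). In those fits 3841 of 16869 and 5087 of 16832 genes had a limma unadjusted p under 0.05. Bak1 lies within the span of Ggnbp1 on the other strand, whose deposited values averaged 0.04.

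**Figure D2:**
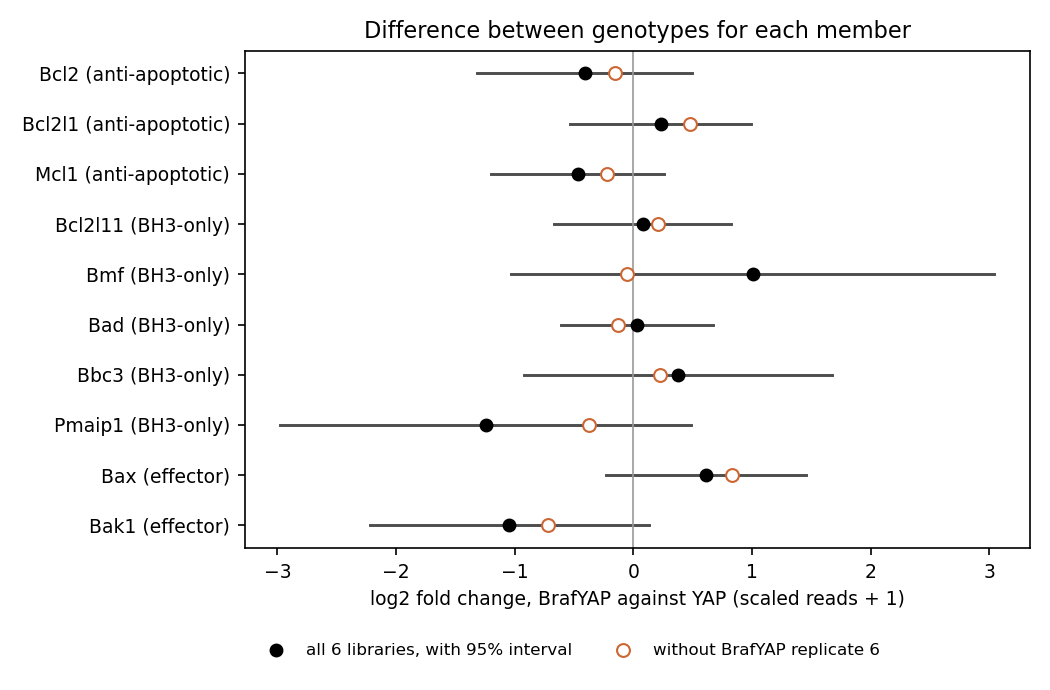
Log2 fold change (horizontal axis, BrafYAP against YAP on scaled reads + 1) of each of the 10 genes, with all 6 libraries (black points, bars are 95% limma intervals) and without BrafYAP replicate 6 (orange circles). All 10 intervals hold 0, and leaving out the 1 library moved Bmf from 1.01 to -0.05 and Pmaip1 from -1.24 to -0.37.

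Among the 10 genes, BrafYAP replicate 6 was the lowest library for 5 and the highest for 2, and YAP replicate 1 was the lowest for 4 and the highest for 2. These are also the libraries with the lowest and the highest immune marker sums, 51441 and 644349 scaled reads. Most of the reads in those sums came from Lyz2, with means of 395372 in YAP and 117876 in BrafYAP. BrafYAP replicate 6 also had the highest C-cell and parathyroid marker sum, 11929 scaled reads against 6.65 to 3481 in the other libraries. The part of either library's cell content in these values was not tested.

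To set the genes beside one another, estimated reads were divided by each gene's exonic length and rescaled to TPM. On this scale Bax (234 ± 70.6 TPM, SD, n = 3), Pmaip1 (212 ± 51.6) and Bcl2l1 (186 ± 27) led in YAP, and their libraries overlapped in that order. Bad (77.0 ± 5.45) and Mcl1 (51.4 ± 6.37) followed without overlap with each other or with the 3 above. Then came Bcl2l11 (17.4 ± 4.95), Bbc3 (11.7 ± 6.47) and Bak1 (8.28 ± 3.67), each of which overlapped the next, and Bcl2 (2.90 ± 0.80) and Bmf (1.02 ± 0.21) were the lowest. By the mean over all 6 libraries of both groups, Bax, Bcl2l1 and Pmaip1 stood at percentiles 96.6, 95.2 and 94.0 of the 16832 genes tested. Bcl2 and Bmf stood at 28.2 and 26.8.

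In BrafYAP the order by TPM was Bax (370 ± 109, SD, n = 3), Bcl2l1 (234 ± 78.2), Pmaip1 (128 ± 107), Bad (82.4 ± 16.1) and Mcl1 (39.4 ± 10.8). Neighbors from Bax to Bad overlapped in that order, and Bad and Mcl1 did not. Bcl2l11 (18.7 ± 3.47) and Bbc3 (13.7 ± 2.86) overlapped each other, and Bak1 (3.99 ± 1.4), Bmf (3.70 ± 4.66) and Bcl2 (2.28 ± 0.70) were the lowest and overlapped in that order. The rank of Pmaip1 thus went from the second to the third and that of Bmf from the tenth to the ninth. Pmaip1 and Bcl2l1 overlapped in both groups, while Bmf and Bcl2 overlapped in BrafYAP but not in YAP.

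The summed level of the 10 genes was then divided by role. The effector share was 25.1%, 34.4% and 29.8% in YAP replicates 1, 2 and 3 and 39.3%, 43.4% and 42.6% in BrafYAP replicates 1, 2 and 6. The BH3-only share was 36.3%, 42.6% and 39.8% in YAP and 22.7%, 31.7% and 27.2% in BrafYAP. Both shares were apart in every library, with the effector share higher and the BH3-only share lower in BrafYAP. The shares sum to 100% in each library, so they cannot move separately, and the summed levels overlapped between groups, at 174, 308 and 244 TPM in YAP and 374, 485 and 263 TPM in BrafYAP for effectors and at 251, 382 and 325 TPM and 216, 355 and 168 TPM for BH3-only genes. The mean shares were 29.8% ± 4.61 and 41.8% ± 2.19 (SD, n = 3) for effectors, a difference of 12.0 percentage points, and 39.5% ± 3.18 and 27.2% ± 4.52 for BH3-only genes, a difference of -12.3. This is a description with no test, and it rests on Bax, which made up 93.9% to 98.7% of the effector level in YAP and 98.8% to 99.1% in BrafYAP, and on Pmaip1, which made up 63.9% to 68.9% and 16% to 67.5% of the BH3-only level. The groups were also apart with the longest transcript as the length, where the differences were 10.2 and -9.95 percentage points, and with the genomic span, where they were 16.8 and -14.0.

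The anti-apoptotic share did not separate the groups, at 38.6%, 23.0% and 30.4% in YAP and 38%, 24.9% and 30.2% in BrafYAP. Its mean was 30.7% ± 7.80 and 31% ± 6.61 (SD, n = 3). Within it, Mcl1 made up 22.0%, 23.2% and 19.2% in YAP and 12.4%, 16.8% and 14.5% in BrafYAP, and Bcl2l1 made up 77.2%, 75.3% and 79.4% and 86.9%, 82.2% and 84.7%. Every BrafYAP library thus had more of its anti-apoptotic RNA from Bcl2l1 and less from Mcl1 than any YAP library, again with no test.

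**Figure D3:**
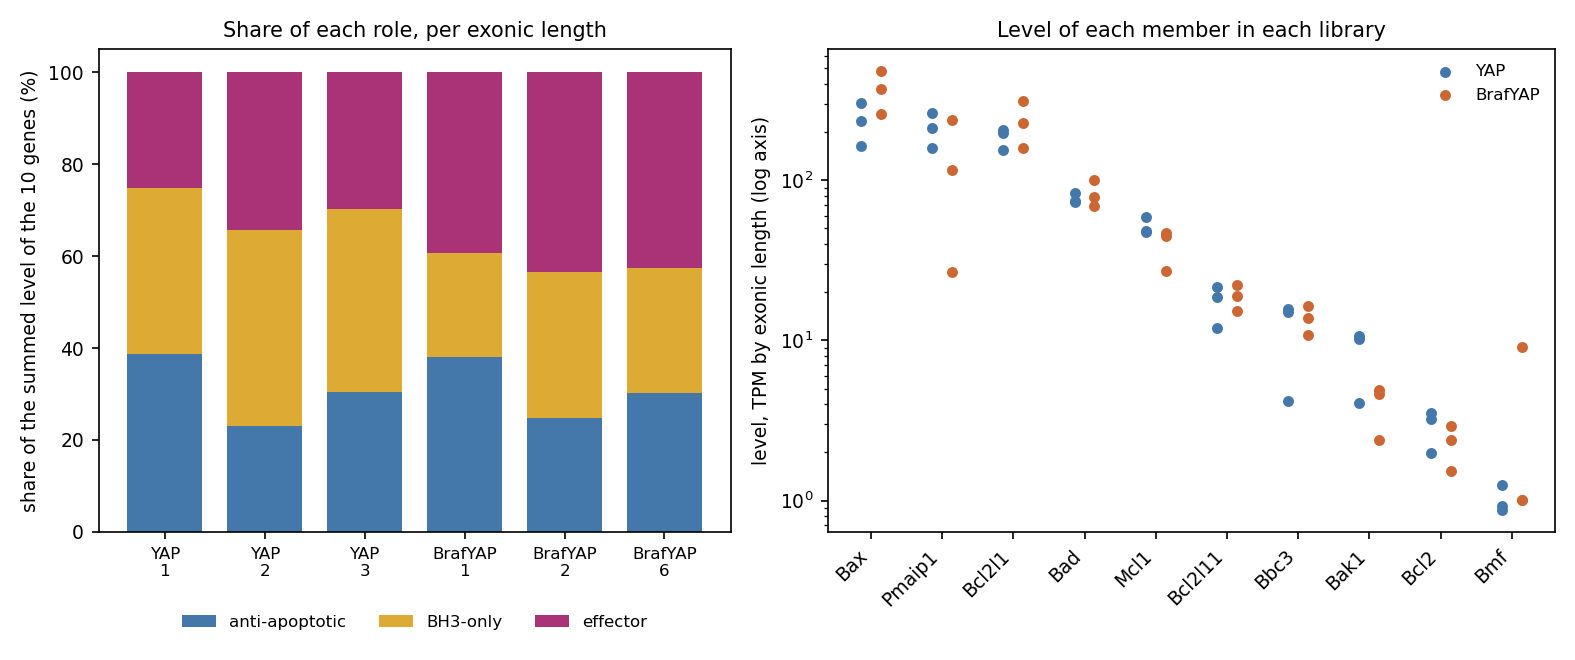
Left, share of the summed level of the 10 genes (vertical axis, percent) by role in each of the 6 libraries, from levels per exonic length. Right, level of each gene (vertical axis, TPM by exonic length on a log axis) in the YAP (blue) and BrafYAP (orange) libraries, ordered by the YAP mean. The effector share was 25.1% to 34.4% in YAP and 39.3% to 43.4% in BrafYAP, and levels spanned from Bmf (1.02 ± 0.21 TPM in YAP) to Bax (234 ± 70.6).

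Ratios between binding partners overlapped between the groups. The ratio of Bax to Bcl2l1, from levels per exonic length, was 0.79, 1.96 and 1.19 in YAP and 1.17, 2.10 and 1.65 in BrafYAP. The ratio of Pmaip1 to Mcl1 was 2.72, 5.50 and 4.47 in YAP and 2.6, 5.14 and 1.00 in BrafYAP. Only the ratio of Bax to Bak1, of the 4 ratios computed, was apart, at 15.4, 75 and 22.9 in YAP and 79.6, 97.1 and 109 in BrafYAP.

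The rest of the pathway was described with 67 other apoptosis genes, of which 62 could be tested on scaled reads. By limma 0 of 62 had an adjusted p under 0.05, and 18 had an unadjusted p under 0.05 (5 higher and 13 lower in BrafYAP), beside 20.2% of all genes. The groups did not overlap for 21 of 62 (5 higher and 16 lower), beside 28.7%, and the median log2 fold change was -0.29 beside -0.12 over all genes. On the deposited values 1 of 41 passed, Pim3.

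Other BCL2-family and BH3-containing genes were described next. Of 14 tested, 4 had a limma unadjusted p under 0.05 (20.2% of all genes) and 5 did not overlap (28.7% of all genes), all lower in BrafYAP, and the median log2 fold change was -0.61. Bcl2a1a, an anti-apoptotic gene known from hematopoietic cells, had 2565, 2071 and 1615 scaled reads in YAP and 823.5, 653.9 and 749.4 in BrafYAP. The YAP libraries were well above the BrafYAP libraries, but the log2 fold change of -1.47 did not pass (SE 0.289, limma adjusted p = 0.0889). Its near-identical copies Bcl2a1b (log2 fold change -1.12) and Bcl2a1d (-0.98), named after their values were seen, can share reads with it and are uncertain as separate genes. All 8 immune markers tested also had negative changes, 4 with a limma unadjusted p under 0.05 beside 20.2% of all genes. Trac, at a log2 fold change of -0.42, nevertheless had a higher mean in BrafYAP (62.3 scaled reads) than in YAP (36.9). Lyz2 had a mean of 395372 scaled reads in YAP and 117876 in BrafYAP. The part of these markers in the Bcl2a1 values was not tested. Bcl2l12 (-0.92) and Bcl2l2 (-0.97), also named after their values were seen, were the other genes apart, and Bcl2l2 overlapped once rescaled by median ratios or quantiles. Bcl2l10 and Hrk had at most 3 estimated reads in every library.

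Among inhibitors of apoptosis proteins, which block caspases or act in cell division, all 5 tested had negative changes, 2 with a limma unadjusted p under 0.05 beside 20.2% of all genes, and the median was -0.77. Birc5, the survivin gene, which also serves chromosome segregation, had 1884, 1157 and 1315 scaled reads in YAP and 404.4, 244.1 and 181.2 in BrafYAP. The groups were far apart, and the log2 fold change was -2.44 (SE 0.389, limma adjusted p = 0.0672). Birc2, a ubiquitin ligase, had a change of -1.05 (SE 0.302, limma adjusted p = 0.136), and Birc6, named after its values were seen, was the other gene apart, at -0.76.

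For the execution of the mitochondrial pathway, 6 of 16 genes had a limma unadjusted p under 0.05 (1 higher and 5 lower), beside 20.2% of all genes, and the median log2 fold change was -0.29. Parp1, a substrate of caspases, had 1751, 2615 and 2375 scaled reads in YAP and 1015, 994.6 and 637.6 in BrafYAP (log2 fold change -1.36, SE 0.317, limma adjusted p = 0.104). Every BrafYAP library was below every YAP library. Endog, a mitochondrial nuclease, differed by 2.12 on the log2 scale (SE 0.720, limma adjusted p = 0.174), at 5.4 to 14.5 scaled reads in YAP and 20.01 to 82.04 in BrafYAP.

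Genes that act on the 10 members were balanced in direction, with a median log2 fold change of -0.04 over 18 tested and 3 with a limma unadjusted p under 0.05, all higher, beside 20.2% of all genes. Pim3, a kinase known to phosphorylate Bad, had 210.7, 430.5 and 318.2 scaled reads in YAP and 1554, 1881 and 2050 in BrafYAP. Each BrafYAP library was above the highest YAP library. Its log2 fold change was 2.56 (SE 0.344, limma adjusted p = 0.0567) and passed on the deposited values (limma adjusted p = 0.0468). That call was lost with a pseudocount of 0.0001, without a filter on low values, with a replicate block, with protein-coding genes only, and when replicate 1 or 3 of YAP or replicate 1 or 2 of BrafYAP was left out, since 0 genes of the table passed there. The replicate block compares only replicates 1 and 2 of each group. March5, a ubiquitin ligase of the outer mitochondrial membrane, differed by 1.16 on the log2 scale (SE 0.350, limma adjusted p = 0.144), and Dynll2, the dynein light chain that holds Bmf, by 1.01 (SE 0.416, limma adjusted p = 0.234). In the death receptor pathway 3 of 9 genes had a limma unadjusted p under 0.05 (1 higher and 2 lower), beside 20.2% of all genes, with a median of -0.28, and the one higher was the kinase gene Ripk1 (0.89, SE 0.323, limma adjusted p = 0.192). Fas, a death receptor, and Tnfsf10, a ligand, were the genes lower, at -0.92 and -1.81, and both were named after their values were seen.

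**Figure D4:**
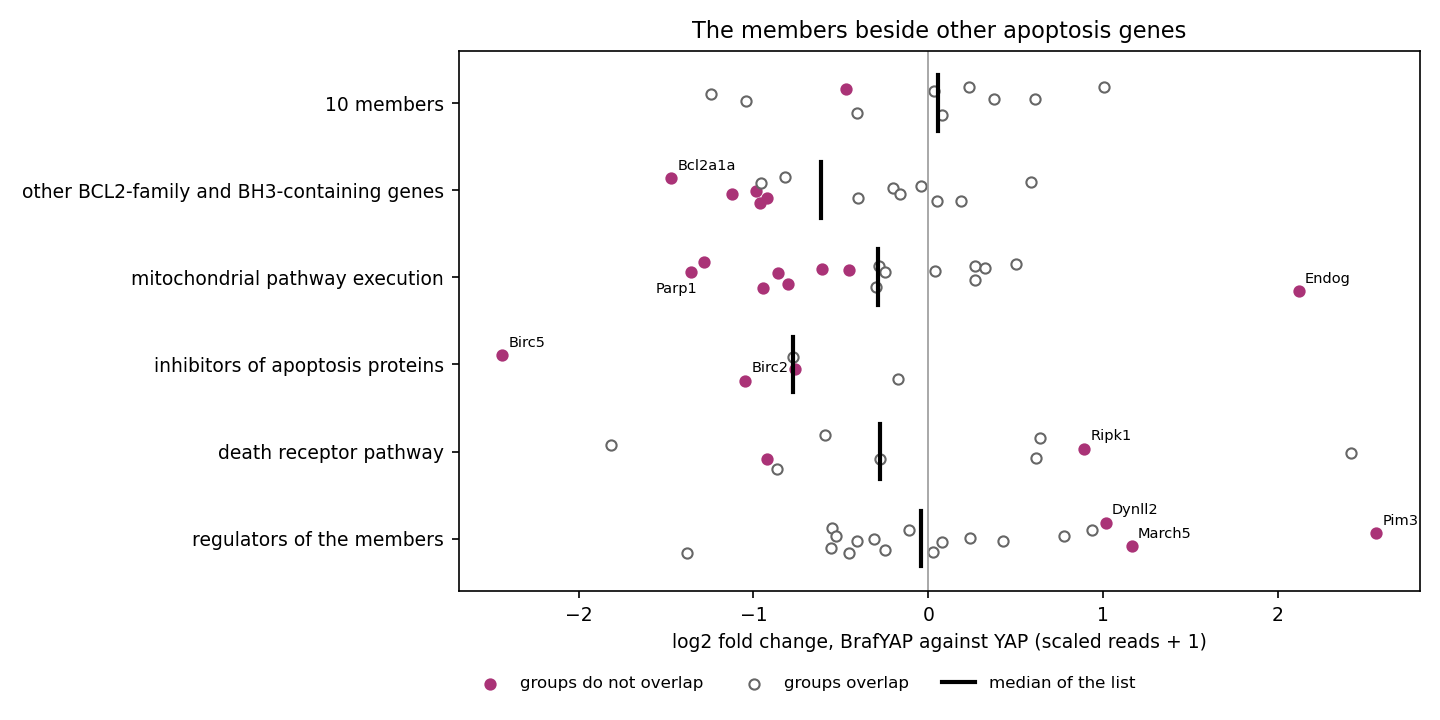
Log2 fold change (horizontal axis, BrafYAP against YAP on scaled reads + 1) of the 10 genes and of 5 lists of other apoptosis genes, 1 point per gene tested, filled where the 3 YAP and 3 BrafYAP libraries do not overlap, with the median of each list as a black bar. The 10 genes lay between -1.24 and 1.01 around a median of 0.05, and the lists reached from Birc5 at -2.44 to Pim3 at 2.56.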

How the data were processed

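RNA was measured in Kate-positive cells sorted from thyroid tumors, amplified with SMART-Seq v4 (12 cycles), made into libraries with 8 PCR cycles and sequenced as 50-nt pairs. The submitters' processing notes name bcl2fastq 2.2, STAR 2.6.1d, mm10 and Partek. The authors deposited TPM from the Partek E/M model on Ensembl 95, with 0.0001 added. Each of the 6 columns summed to 181217.6, and 0 columns lacked a sample. Low values (under 200 reads) gave products within 0.05 of whole multiples of a step per library for 71.7 to 76.0% of genes with the genomic span as length and for 22.3 to 24.9% with the exonic length, so the TPM had been divided by the span, introns included. Whether intronic reads were counted is not given in the sources used here. Estimated reads were (value - 0.0001) × span / step for the 34640 genes at 1 locus in GENCODE M21. Scaled reads are these on the authors' scale between libraries. PCR reads carry no molecular identifiers, so the Poisson intervals cover counting error only and do not account for PCR duplicates. The limma intervals reflect the spread between libraries.

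Samples were grouped by their titles. The study's text describes single tumors where the labels give pools, and is not uniform on the start of doxycycline, and the labels were used for both. The genotypes were compared (BrafYAP over YAP) with limma 3.58.1 under R 4.3.3 (lmFit, eBayes with a trend, two-sided, no covariate) on log2(scaled reads + 1) for means of at least 10, and on log2(deposited value + 1) for means of at least 1, with Benjamini-Hochberg adjustment over all genes tested and a threshold of 0.05. The code was tested on simulated data. The labels give no batch, and none was modelled. The 10 genes, the lists and the tests were chosen with earlier results of these data known. Named among the other apoptosis genes were those past the threshold and, per direction, the 5 with the smallest p among those whose groups do not overlap, and others are said to be named after their values were seen. Genes of the lists with a mean under the minimum or no estimate were not tested, and some items are not reported here. Alternatives were other pseudocounts, minimum means, scalings, eBayes without a trend, array weights (gene by gene), a replicate block, voom, TPM by exonic length, each library left out, and, added after seeing the data, protein-coding genes only.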

Additional observations from a re-analysis of the deposited data

How the results depend on the processing

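The count of the 10 genes past the threshold remained 0 under every alternative run, on scaled reads and on deposited values. Single-gene values under an alternative kept their direction in 259 cases and reversed in 23, none past the threshold, and the cause was not tested. On scaled reads, array weights gave -0.070 for Bad and -0.055 for Bbc3. The labels do not say whether libraries with the same replicate number share an origin. Their deviations from the group means correlated at -0.03 and 0.05, which cannot decide it with so few libraries. With a replicate block, Bmf was -0.14 and Bad -0.18, and 0 of the 10 genes passed. On deposited values, quantile normalization gave -0.027 for Bcl2l11 and -0.031 for Bad, array weights gave -0.0094 for Bcl2l11, -0.021 for Bad and -0.086 for Bbc3, and the replicate block gave -0.16 for Bad.

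With each library left out in turn, the change on scaled reads ran from -0.015 to 0.48 for Bcl2l1, from -0.16 to 0.22 for Bcl2l11, from -0.050 to 1.54 for Bmf, from -0.13 to 0.15 for Bad and from -0.24 to 0.73 for Bbc3. On deposited values it ran from -0.012 to 0.42 for Bcl2l1, from -0.10 to 0.12 for Bcl2l11, from -0.11 to 0.13 for Bad and from -0.12 to 0.21 for Bbc3. Mcl1, Pmaip1, Bax, Bak1 and Bcl2 kept their direction under every alternative run. Of the 62 other apoptosis genes, 1 passed with a pseudocount of 10 (45 of all 16832 genes) and 1 with quantile normalization (62 of 16832). With array weights 12 of 62 passed, beside 1886 of 16832. With a library left out 0 to 1 passed (1 without BrafYAP replicate 6, beside 142 of 16588). The effector share differed by 16.8 percentage points with the genomic span.

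Over all genes on scaled reads, 45 passed with a pseudocount of 10, 62 with quantile normalization, 20 with eBayes without a trend, 1886 with array weights, 142 without BrafYAP replicate 6 and 3 without YAP replicate 2. On deposited values the count ran from 0 to 1393 around 18. Rescaling by median ratios moved the median of all genes on scaled reads from -0.12 to 0.01.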
